A study of Homo sapiens with 17 samples.

Results

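The 36 genes described here encode proteins that repair DNA crosslinks and broken replication forks. They were chosen by name, with earlier results of these data known, from 63187 genes counted in a human liver carcinoma line. All 36 passed the filter on low counts. They are 9 genes of the Fanconi core complex with its ubiquitin-conjugating enzyme, the FANCI and FANCD2 pair, 3 nuclease genes, 2 genes of end resection, 5 genes of the BRCA proteins and their partners, 7 genes of strand exchange, 3 genes of the BLM complex, 2 checkpoint kinase genes and 3 genes whose enzymes remove crosslinked proteins.

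HepG2 cells, an established line from a liver tumour that the labels call wild type, were kept with 0, 2 or 10 µM 5-azacytidine in daily renewed medium for 4 days. The untreated cells served as control, and no other agent was named for any dose. RNA was measured in 9 libraries, 3 per dose. Open chromatin was measured in 8 libraries by ATAC-seq, whose transposase tags DNA that is not packed away, with 3 at 0 µM, 3 at 2 µM and 2 at 10 µM. The labels call these libraries biological replicates of 1 cell line without saying whether they came from separate cultures, so p-values measure the spread between these libraries.

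5-Azacytidine is a cytidine analogue that enters RNA and DNA. In DNA it traps DNA methyltransferases on the strand, and such a trapped protein blocks replication forks. At a crosslink the Fanconi core complex attaches ubiquitin to FANCI and FANCD2, nucleases then cut the crosslink out, and homologous recombination, in which a resected end invades the intact sister copy, mends the break. Dividing cells make much of this machinery in S and G2 phase, when a sister copy is at hand, and E2F factors are known to act on many of its genes.

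The stretches before the starts of 5 genes show the cases in which RNA and open chromatin went together or apart. They are the 250 bases upstream of the RefSeq start on the gene's strand, in build GRCh38.p14. They lie at chr1:202341937-202342186 (minus strand) for UBE2T, whose RNA fell while no change of the start was detected. For EXO1, where RNA and the start peak both fell, the stretch is chr1:241848481-241848730 (plus strand). For FANCA, where both fell too, it is chr16:89816648-89816897 (minus strand). For TDP1, whose RNA fell and whose start peak rose, it is chr14:89955677-89955926 (plus strand). For ATR, whose RNA rose while no change of the start was detected, it is chr3:142578734-142578983 (minus strand). Capitals mark every copy, on either strand, of the words searched for, which are TTTCCCGC, TTTGGCGC, TTTGCCGC and TTTCGCGC for E2F, TTTGAA and TTCGAA for the cell cycle homology region, GGGCGG for the SP1 box and CCAAT for the NF-Y box.
UBE2T: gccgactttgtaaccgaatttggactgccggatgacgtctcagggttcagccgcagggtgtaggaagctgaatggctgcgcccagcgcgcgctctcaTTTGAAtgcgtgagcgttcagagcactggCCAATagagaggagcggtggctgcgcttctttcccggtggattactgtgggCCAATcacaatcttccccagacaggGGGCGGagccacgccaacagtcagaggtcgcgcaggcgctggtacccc
EXO1: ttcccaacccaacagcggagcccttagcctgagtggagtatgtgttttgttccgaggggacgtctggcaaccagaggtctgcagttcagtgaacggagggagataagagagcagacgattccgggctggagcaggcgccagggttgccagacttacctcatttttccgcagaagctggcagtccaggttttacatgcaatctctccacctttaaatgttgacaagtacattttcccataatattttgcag
FANCA: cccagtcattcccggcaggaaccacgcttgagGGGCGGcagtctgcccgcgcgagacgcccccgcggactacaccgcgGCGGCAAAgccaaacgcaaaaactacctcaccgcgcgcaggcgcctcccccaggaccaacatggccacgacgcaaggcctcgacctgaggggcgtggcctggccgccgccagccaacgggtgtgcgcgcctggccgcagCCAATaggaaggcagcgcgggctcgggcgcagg
TDP1: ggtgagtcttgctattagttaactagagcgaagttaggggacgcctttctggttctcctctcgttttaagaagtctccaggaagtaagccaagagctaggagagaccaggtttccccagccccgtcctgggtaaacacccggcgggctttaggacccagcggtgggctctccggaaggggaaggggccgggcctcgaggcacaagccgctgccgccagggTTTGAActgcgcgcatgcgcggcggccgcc
ATR: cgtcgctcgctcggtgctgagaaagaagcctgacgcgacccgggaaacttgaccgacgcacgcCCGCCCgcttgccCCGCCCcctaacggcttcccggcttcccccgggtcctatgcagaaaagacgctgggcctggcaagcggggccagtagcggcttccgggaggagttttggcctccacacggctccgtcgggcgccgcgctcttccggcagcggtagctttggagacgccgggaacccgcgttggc

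The UBE2T stretch holds 4 of these words, 1 of them a cell cycle homology word 153 bases before the start, and 19 CpG dinucleotides. The FANCA stretch holds 3 words, with an E2F word on the opposite strand 172 bases before the start, and 31 CpG. The EXO1 stretch holds none of the words and 8 CpG. EXO1 has a second RefSeq window farther upstream, at chr1:241847954-241848203, with 1 SP1 box and 27 CpG, and the window printed is the one nearer its start peak. The printed stretches of EXO1 and TDP1 lie inside the spans that RefSeq gives these genes, as do their start peaks. Those spans begin at chr1:241847986 and chr14:89954968. There were 1 cell cycle homology word and 18 CpG in the TDP1 stretch, and 2 SP1 boxes and 32 CpG in the ATR stretch. No marked words overlapped each other in these 5 stretches.

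RefSeq promoters were found for 34 of the 36 genes, all but FANCI and RMI2. Of these 34, 10 have more than 1 RefSeq window, and a gene is counted where any of its windows holds a word. A RefSeq window can lie inside its gene. The RAD51B windows end at chr14:67823540 and chr14:67823591, while that gene's span begins at chr14:67819779, and they hold no word and 1 CpG each. An E2F word stood in 3 of these 34 genes (8.82%), which were FANCA, FANCC and RMI1, against 5.38% of the 11830 expressed genes with such a promoter and 3.40% of all 27305. The cell cycle homology words were in 14.7% of the family and 13.7% of expressed genes, the SP1 box in 70.6% and 71.8%, and the NF-Y box in 41.2% and 40.7%. The median number of CpG dinucleotides in the 250 bases was 21 in the family and 22 in expressed genes. Whether any of these shares differs from the background was not tested. These words are matches of letters and say nothing of whether a factor was bound. The E2F words of FANCC and of RMI1 each lie in a second RefSeq window of their gene. That of RMI1 is inside the gene's span, which begins at chr9:83980359. Capitals mark the words of both genes in these stretches of 30 bases at chr9:95317737-95317766 (minus strand), chr9:95317863-95317892 (minus strand) and chr9:83980762-83980791 (plus strand).
FANCC, nearer word: ttcgtcggaatTTTCCCGCgacgccgcggg
FANCC, farther word: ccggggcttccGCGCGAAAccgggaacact
RMI1: ggcgcgagcgcGCGGCAAAtcgggcgggaa

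Total counts were 35553052 to 46430168 per RNA library and 2896671 to 7864321 reads in peaks per ATAC library. The counts of the 36 genes lay between 68 and 5621 per library, with a median of 1098. Levels are in CPM on TMM-scaled library sizes, the usual unit of counts relative to library size, are not corrected for gene length, and are compared only within a gene. Liver markers were chosen here for the labelled cell type. Over 7 genes they summed to 20349 to 31357 CPM at 0 µM, 9703 to 15907 CPM at 2 µM and 587 to 834 CPM at 10 µM. PTPRC, the defining leukocyte gene, was at 0 counts in all 9 libraries. In bulk RNA, fewer cells of a kind and less RNA per cell cannot be told apart, and since no source used here states the strand setting of the counting, reads of genes that overlap or run antisense cannot be told apart either.

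At 10 µM the RNA of most of the family was lower. Changes were tested with edgeR's quasi-likelihood F-test over all 18999 genes with Benjamini-Hochberg adjustment, and a gene is said to have risen or fallen where the adjusted p was under 0.05. In 10 µM against 0 µM cells 26 of 36 genes fell (72.2%), where 25.1% of all genes tested fell. ATR, MUS81 and SPRTN rose, which is 8.33% of the family, where 23% of all genes rose. The other 7 genes did not pass the test. The median log2 change was -1.48 over the 36 genes and -0.016 over all genes tested. In 25 of the 26 genes that fell the 3 libraries at 10 µM lay below all 3 at 0 µM, and all 3 genes that rose lay above, where 29% of all genes were without overlap downwards and 29.9% upwards.

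Summed over the family, RNA came to 1519 ± 337 CPM in untreated cells, 1426 ± 125 CPM with 2 µM and 734 ± 73.9 CPM with 10 µM of the drug (SD, n = 3 each). The highest 10 µM library, at 819.7 CPM, lay below the lowest untreated one, at 1134 CPM, while the ranges at 2 and 0 µM overlapped. The lowest untreated library was replicate 3, against 1661 and 1763 CPM in replicates 1 and 2. It also had the largest share of counts from mitochondrially encoded mRNA, 0.271%, where replicate 3 at 2 µM had 0.231% and the other 7 libraries 0.0664% to 0.143%. The part of this in the results was not tested, and without that library 26 genes fell and 2 rose at 10 µM.

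**Figure D1:**
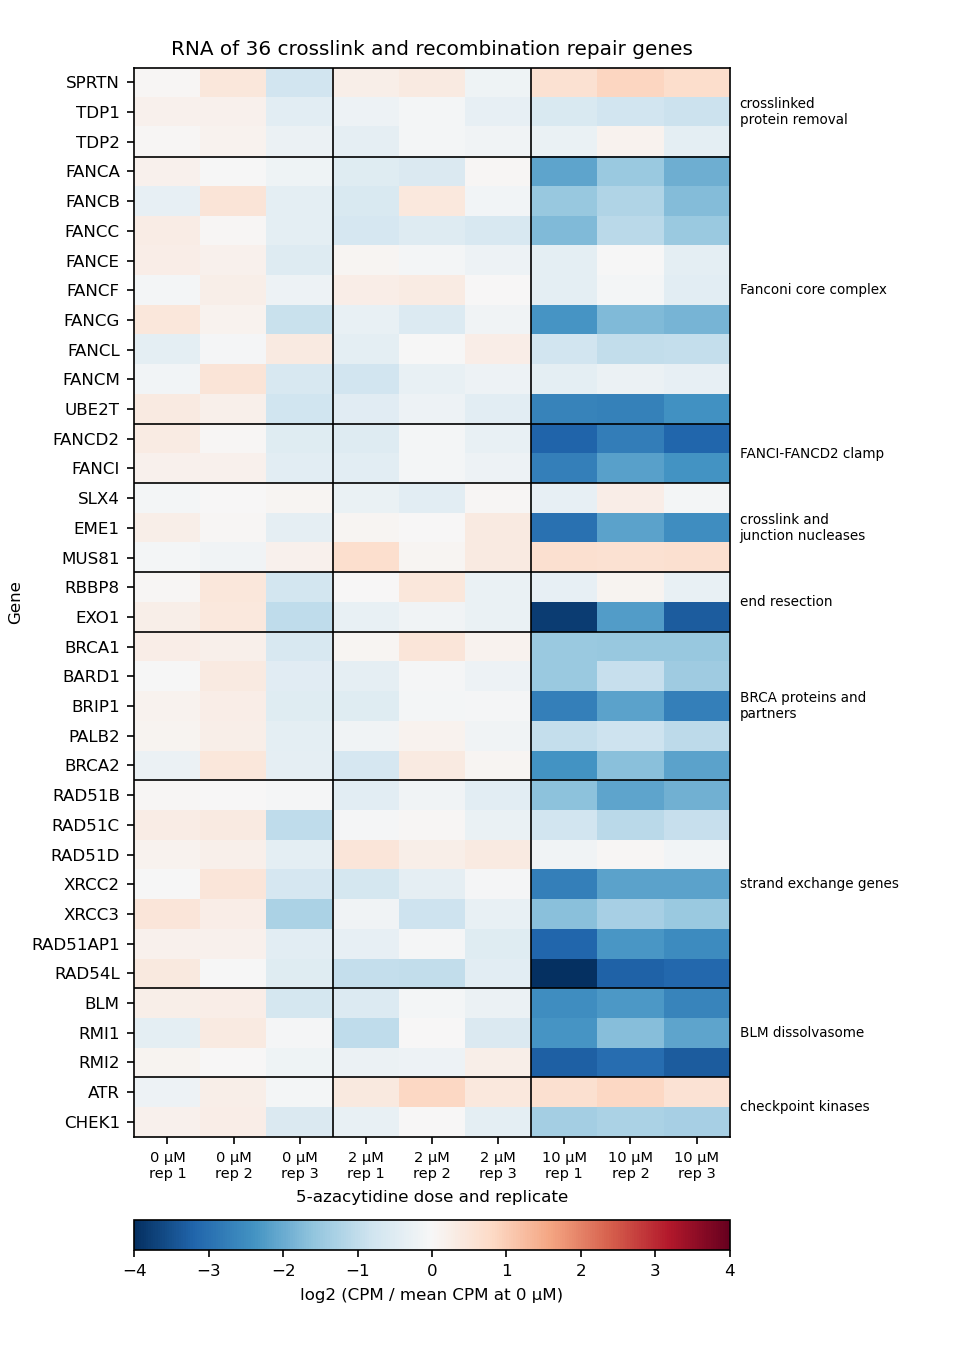
Colour gives the log2 ratio of each library's CPM to the gene's mean at 0 µM (rows, 36 genes by role; columns, 3 replicates at 0, 2 and 10 µM). Blue fills most of the 10 µM columns, with SPRTN, MUS81 and ATR in red there, and the 2 µM columns stay pale.

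Genes of cell division moved in the same libraries. Of 23 genes of the G1/S transition 22 fell at 10 µM (95.7%, median log2 change -2.44), and all 15 genes of G2 and mitosis fell (median -3.86). Among all genes tested 25.1% fell and 23% rose. The G1/S genes summed to 1770.3 to 4509.6 CPM at 0 µM, 2785 to 2970.1 CPM at 2 µM and 786 to 861 CPM at 10 µM. The G2 and mitosis genes summed to 2111 to 3378 CPM at 0 µM, 1802 to 2006 CPM at 2 µM and 223 to 307 CPM at 10 µM. What part the number of dividing cells had in the fall of the repair genes was not tested.

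Of the 9 core complex genes 6 fell at 10 µM and 3 did not pass the test. UBE2T, the enzyme that hands ubiquitin to the complex, had 70.7, 62.5 and 31.4 CPM at 0 µM, 40.2, 48.2 and 41.3 CPM at 2 µM, and 8.61, 8.36 and 10.2 CPM at 10 µM. All 3 libraries at 10 µM were far below the other 6. The level left at 10 µM was 16.5% of that at 0 µM (log2 change -2.60, SE 0.276, adjusted p = 9.10e-06). FANCA, a scaffold subunit, had 92.3, 81.6 and 72.2 CPM at 0 µM, 58.2, 54.6 and 85.4 CPM at 2 µM, and 18.9, 29.2 and 21 CPM at 10 µM. Here too the libraries at 10 µM lay below all others (log2 change -1.83, SE 0.232, adjusted p = 3.81e-05). FANCG, which binds FANCA, fell by 1.97 on the log2 scale, FANCB by 1.47 and FANCC by 1.41. AOPEP, which overlaps 23.4% of the FANCC gene, did not pass (log2 change -0.48, adjusted p = 0.0896). FANCL, the ubiquitin ligase itself, fell least of the 6 (log2 change -0.91, SE 0.226, adjusted p = 0.00502). For the 3 others the interval held both directions: FANCE (log2 change -0.24), FANCF (-0.28) and FANCM (-0.32), the subunit that anchors the complex on DNA, had adjusted p between 0.271 and 0.415. FANCM alone of the 3 passed once the replicates 3 at 0 and 2 µM were both left out, with adjusted p = 0.0419.

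Both proteins that receive the ubiquitin had less RNA. FANCD2 had 96.2, 78.1 and 54.1 CPM at 0 µM, 53.5, 72.7 and 62 CPM at 2 µM, and 8.18, 11.1 and 8.51 CPM at 10 µM. Its libraries at 10 µM lay between 8 and 11 CPM and did not reach the others (log2 change -3.04, SE 0.247, adjusted p = 1.26e-06). FANCI had 97.3, 98.2 and 64.1 CPM at 0 µM, 64.1, 82 and 74.8 CPM at 2 µM, and 13.1, 19.4 and 16.6 CPM at 10 µM. It kept 18.9% of the untreated level at 10 µM, while FANCD2 kept 12.2% (FANCI log2 change -2.40, SE 0.227, adjusted p = 3.75e-06).

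The nuclease genes went apart. MUS81 and EME1 encode the catalytic and the partner subunit of 1 enzyme that cuts branched DNA. EME1 had 26.8, 23.3 and 17.7 CPM at 0 µM, 23.7, 22.9 and 28.8 CPM at 2 µM, and 2.87, 5.13 and 4.06 CPM at 10 µM. The libraries at 10 µM stood clear below the rest (log2 change -2.49, SE 0.263, adjusted p = 8.79e-06). MUS81 had 28.4, 27.1 and 33.6 CPM at 0 µM, 47.4, 31.3 and 38.2 CPM at 2 µM, and 45.8, 45.1 and 46.5 CPM at 10 µM. Its libraries at 10 µM were above all at 0 µM but within the range at 2 µM (log2 change 0.63, SE 0.192, adjusted p = 0.0166). The MUS81 call was lost without replicate 1 at 0 µM (adjusted p = 0.0551), replicate 2 at 0 µM (0.0625) or replicate 3 at 10 µM (0.0504). EFEMP2, which overlaps 15.2% of the MUS81 gene, fell (log2 change -1.09). SLX4, the scaffold on which such nucleases assemble, had 11, 11.8 and 12.4 CPM at 0 µM, 9.71, 8.83 and 12.2 CPM at 2 µM, and 9.38, 14.2 and 11.2 CPM at 10 µM. Those 3 groups overlapped (log2 change -0.020, 95% interval -0.52 to 0.48, adjusted p = 0.952).

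End resection, which turns a break into single-stranded DNA, has 2 genes here. EXO1, the exonuclease of long-range resection, had 39, 43.9 and 16.3 CPM at 0 µM, 26.8, 30.2 and 27.3 CPM at 2 µM, and 2.39, 7.07 and 3.28 CPM at 10 µM. All libraries at 10 µM were below 8 CPM, and replicate 3 at 0 µM was the lowest of the other 6 (log2 change -2.96, SE 0.419, adjusted p = 9.21e-05). RBBP8, which encodes CtIP and starts resection, had 77.9, 103 and 45.7 CPM at 0 µM, 77.1, 103 and 62.8 CPM at 2 µM, and 60.5, 81.4 and 61.6 CPM at 10 µM. Its groups overlapped throughout (log2 change -0.15, 95% interval -0.75 to 0.44, adjusted p = 0.676).

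All 5 genes of the BRCA group fell. BRIP1, the helicase that binds BRCA1, had 57.1, 62.1 and 37.5 CPM at 0 µM, 37.3, 49.6 and 50.1 CPM at 2 µM, and 7.85, 11.7 and 7.76 CPM at 10 µM. BRCA2, which acts on resected ends, had 55.4, 88.5 and 50.5 CPM at 0 µM, 40.7, 82.3 and 68.4 CPM at 2 µM, and 12.4, 20.6 and 14.7 CPM at 10 µM. BRCA1, the ligase that promotes resection and PALB2 recruitment, had 100.3, 95.4 and 53.3 CPM at 0 µM, 87.1, 115 and 92.3 CPM at 2 µM, and 29.8, 28.8 and 29 CPM at 10 µM. In each of these the 10 µM libraries lay below all others. The change was largest in BRIP1 (log2 change -2.52, SE 0.255, adjusted p = 6.44e-06), then in BRCA2 (log2 change -2.03, SE 0.303, adjusted p = 1.40e-04) and BRCA1 (log2 change -1.51, SE 0.234, adjusted p = 1.86e-04). BARD1, the partner of BRCA1, fell by 1.25 on the log2 scale and PALB2, the bridge to BRCA2, by 0.94, leaving 42% and 52.1% of the untreated level.

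Among the genes of strand exchange, the step in which a broken end invades its sister copy, 6 of 7 fell. RAD54L, a motor protein of strand invasion, had 34.1, 26.1 and 18.7 CPM at 0 µM, 13.6, 13.3 and 19.8 CPM at 2 µM, and 1.63, 2.81 and 2.95 CPM at 10 µM. It kept 9.35% of its untreated level, the lowest share of the 36 genes (log2 change -3.41, SE 0.319, adjusted p = 3.51e-06). LRRC41, which overlaps 3.29% of the RAD54L gene, rose (log2 change 1.92). RAD51AP1, another cofactor of strand invasion, had 39.6, 39.6 and 26.4 CPM at 0 µM, 28, 34.1 and 24.9 CPM at 2 µM, and 3.90, 7.03 and 6.19 CPM at 10 µM. XRCC2 had 32.5, 46.2 and 20.6 CPM at 0 µM, 20.5, 25.9 and 32 CPM at 2 µM, and 4.98, 7.44 and 7.48 CPM at 10 µM. Their 10 µM libraries did not reach the other 6 either (RAD51AP1 log2 change -2.62, SE 0.269, adjusted p = 6.98e-06; XRCC2 log2 change -2.32, SE 0.306, adjusted p = 5.25e-05). RAD51B had 8.44, 8.15 and 7.83 CPM at 0 µM, 6.05, 7.42 and 6.05 CPM at 2 µM, and 2.58, 1.90 and 2.16 CPM at 10 µM. It was lower in all 3 libraries at 10 µM (log2 change -1.88, SE 0.251, adjusted p = 5.86e-05). XRCC3 fell by 1.49 on the log2 scale, and KLC1, which overlaps 22% of the XRCC3 gene, rose (log2 change 1.38). RAD51C fell by 0.92, with 1 untreated library below a 10 µM library, and its call was lost when replicate 1 or 2 at 0 µM or replicate 2 or 3 at 10 µM was left out (adjusted p 0.0626 to 0.0835) and with scaling to total counts (0.0723). RAD51D had 18, 18.9 and 12.4 CPM at 0 µM, 23, 19.2 and 21.1 CPM at 2 µM, and 14.8, 17.1 and 15.1 CPM at 10 µM. Its libraries at 10 µM were inside the untreated range (log2 change -0.071, 95% interval -0.53 to 0.39, adjusted p = 0.808).

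All 3 genes of the BLM complex, which untangles joined sister copies without a crossover, fell. RMI2, a small scaffold subunit, had 48.1, 44.9 and 39.6 CPM at 0 µM, 37.5, 38.2 and 51.8 CPM at 2 µM, and 4.59, 5.40 and 4.41 CPM at 10 µM. It had the smallest adjusted p of the family and kept 10.9% of the untreated level (log2 change -3.20, SE 0.213, adjusted p = 3.66e-07). BLM, the helicase, had 30.9, 31.9 and 16.2 CPM at 0 µM, 18.1, 24.8 and 22.3 CPM at 2 µM, and 4.67, 5.38 and 4.21 CPM at 10 µM. The libraries at 10 µM again stood apart (log2 change -2.47, SE 0.278, adjusted p = 1.47e-05). RMI1, the other scaffold, fell by 2.03 on the log2 scale.

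The checkpoint kinases went opposite ways. ATR, which senses stalled forks, had 53.4, 71.7 and 58.1 CPM at 0 µM, 80.3, 109 and 82.5 CPM at 2 µM, and 94.8, 108 and 92 CPM at 10 µM. Every library at 2 and 10 µM was above every untreated one, and the 2 treated doses overlapped. The rise passed at 10 µM (log2 change 0.69, SE 0.189, adjusted p = 0.00910) and not at 2 µM (log2 change 0.57, SE 0.189, adjusted p = 0.120). CHEK1, the kinase that ATR switches on, had 84, 89.1 and 49.7 CPM at 0 µM, 60.2, 75.6 and 56.8 CPM at 2 µM, and 28.9, 30.9 and 29.5 CPM at 10 µM. It was lowest in the 3 libraries at 10 µM (log2 change -1.32, SE 0.225, adjusted p = 3.83e-04).

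Enzymes that free DNA of attached protein moved in 3 ways. SPRTN, the protease that digests proteins crosslinked to DNA at replication forks, had 21.2, 27.8 and 12 CPM at 0 µM, 23.8, 25.9 and 18.2 CPM at 2 µM, and 31.3, 36.6 and 32.8 CPM at 10 µM. The libraries at 10 µM were above the others (log2 change 0.72, SE 0.270, adjusted p = 0.0410). The SPRTN call was lost when replicate 1 or 3 at 0 µM, replicate 1 or 2 at 2 µM or any library at 10 µM was left out, with adjusted p between 0.0522 and 0.119. Without replicate 3 at 0 µM the log2 change was 0.43. TDP1, which removes topoisomerase I remnants, had 45.5, 45.4 and 29.7 CPM at 0 µM, 35, 38.3 and 32 CPM at 2 µM, and 26.6, 23.9 and 22.2 CPM at 10 µM. It fell (log2 change -0.73, SE 0.205, adjusted p = 0.01000), a call that was lost without replicate 3 at 10 µM (adjusted p = 0.0622) and with scaling to total counts (0.0726). TDP2, which removes topoisomerase II remnants, had 64.3, 68.4 and 52.7 CPM at 0 µM, 48.3, 58.8 and 56 CPM at 2 µM, and 51.4, 68.2 and 47.5 CPM at 10 µM. Its groups overlapped (log2 change -0.15, 95% interval -0.57 to 0.27, adjusted p = 0.549).

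**Figure D2:**
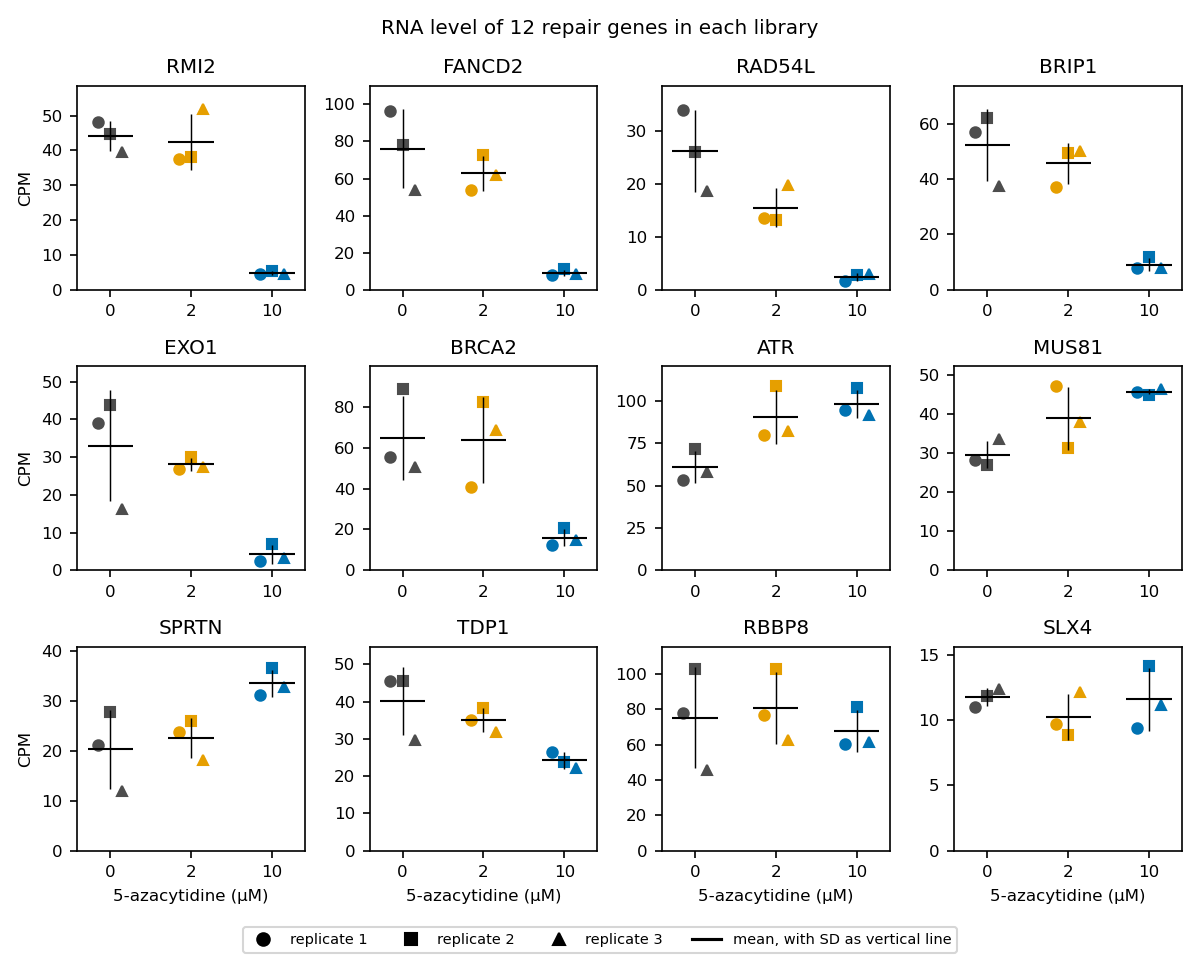
CPM of 12 repair genes in each library by dose (points, replicates; horizontal lines, means; vertical lines, SD, n = 3). RMI2, FANCD2, RAD54L, BRIP1, EXO1 and BRCA2 drop at 10 µM, ATR, MUS81 and SPRTN are higher there than at 0 µM, and RBBP8 and SLX4 overlap across doses.

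At 2 µM no gene of the family passed the test against 0 µM in either direction, where 3.22% of all genes rose and 1.06% fell. By unadjusted p under 0.05 ATR was higher and RAD54L and FANCC were lower, and DESeq2 also called none. The median log2 change was -0.20 over the 36 genes, with 28 below 0. RAD54L had the lowest value (log2 change -0.76, 95% interval -1.38 to -0.13, adjusted p = 0.176) and FANCC the next (log2 change -0.61, 95% interval -1.13 to -0.087, adjusted p = 0.193). Without replicate 3 at 0 µM, RAD54L (adjusted p = 0.0462) and XRCC3 (0.0467) passed as lower.

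In 10 µM against 2 µM cells 25 genes fell (69.4%), where 21.6% of all genes fell. None rose by edgeR or DESeq2, nor by an unadjusted p under 0.05, where 16.8% of all genes rose. SPRTN came nearest to a rise (log2 change 0.57, 95% interval -0.013 to 1.15, adjusted p = 0.113), and it passed without replicate 3 at 0 µM (adjusted p = 0.0264). The 25 genes were those that fell against 0 µM except TDP1 (log2 change -0.54, 95% interval -0.98 to -0.094, adjusted p = 0.0537), and without replicate 3 at 0 µM TDP1 and FANCF passed too (adjusted p = 0.0146 and 0.0402). For the 26 genes that fell at 10 µM the median log2 change was -0.23 in 2 against 0 µM cells (range -0.76 to 0.24), -2.0 in 10 against 0 µM cells (range -3.41 to -0.73) and -1.70 in 10 against 2 µM cells (range -3.15 to -0.54). These comparisons share libraries. ATR did not pass between 10 and 2 µM (log2 change 0.12, 95% interval -0.29 to 0.53, adjusted p = 0.649). Calls of 3 genes in 10 against 2 µM cells rested on single libraries: FANCC was lost without replicate 2 at 2 µM or replicate 1 or 3 at 10 µM (adjusted p up to 0.105), XRCC3 without replicate 1 or 3 at 2 µM or any at 10 µM (up to 0.0914), and RAD51C without any 1 library at 2 or 10 µM (up to 0.133).

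**Figure D3:**
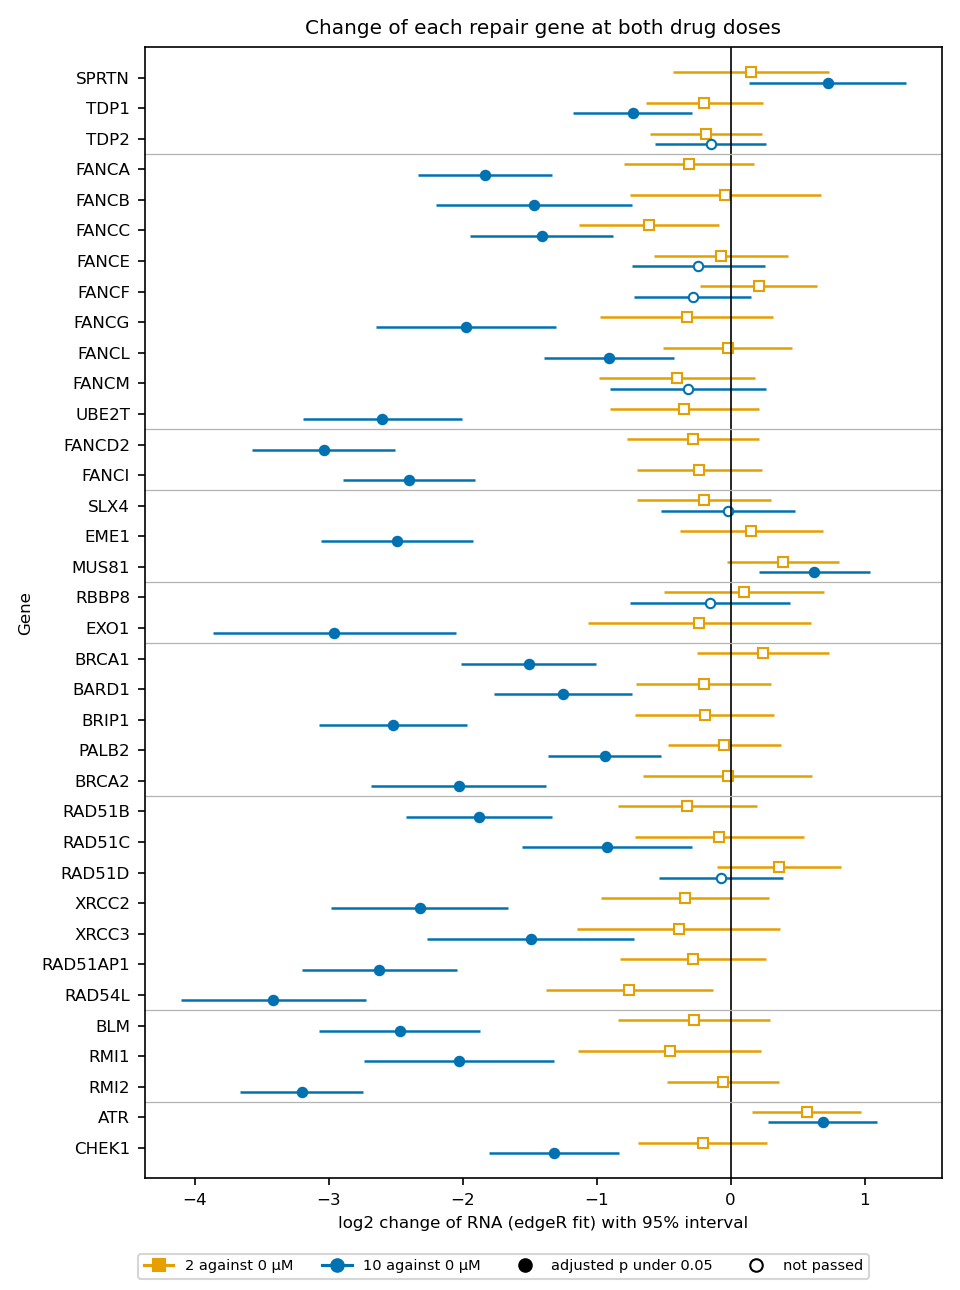
Log2 change of RNA for each of the 36 genes at 2 µM (squares) and 10 µM (circles) against 0 µM, with 95% intervals of the edgeR fit; filled symbols passed the adjusted p of 0.05. No square is filled, 26 circles are filled left of 0 and those of ATR, MUS81 and SPRTN right of it.

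Other genes of the same pathways, from lists chosen with earlier results known, are read against the 25.1% of all genes that fell and the 23% that rose at 10 µM. Of 15 further Fanconi and incision genes that were measured, 4 fell (26.7%) and 3 rose (20%), shares close to those of all genes (median log2 change -0.14). CENPX, a DNA-binding partner of FANCM, fell (log2 change -1.60, adjusted p = 5.46e-05), and USP1, which takes the ubiquitin off FANCD2, fell (log2 change -1.16, adjusted p = 7.09e-04). The incision nuclease subunits ERCC4 (log2 change 1.40, adjusted p = 1.37e-04) and ERCC1 (log2 change 1.31, adjusted p = 4.42e-04) rose. Of 27 further recombination genes 11 fell (40.7%) and 7 rose (25.9%; median -0.46). RAD54B, a relative of RAD54L, fell (log2 change -1.48, adjusted p = 1.96e-04), as did TONSL (log2 change -1.97, adjusted p = 2.02e-04), which reads new histones behind the fork.

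Of 15 further checkpoint genes 7 fell (46.7%) and 1 rose (6.67%; median -0.33). RPA3, a subunit of the single-strand binding complex, fell (log2 change -2.61, adjusted p = 1.71e-06), as did CHEK2, the kinase downstream of ATM (log2 change -2.20, adjusted p = 6.73e-06), while HUS1, part of the checkpoint clamp, rose (log2 change 1.41, adjusted p = 2.38e-04). Of 13 further genes of protein crosslinks and topoisomerases 6 fell (46.2%) and 1 rose (7.69%; median -0.15). TOP2A, the topoisomerase of dividing cells, fell most (log2 change -4.83, adjusted p = 1.36e-07). The 1 that rose was GCNA, a germ cell relative of SPRTN, with 0.786 ± 0.526 CPM in untreated cells, 33.8 ± 2.42 CPM with 2 µM and 2.76 ± 1.21 CPM with 10 µM (SD, n = 3 each). It was the only gene of these lists and of end joining called at 2 µM (log2 change 5.40, adjusted p = 7.96e-05). In end joining, the route that needs no sister copy, 5 of 16 genes rose (31.2%) and 3 fell (18.8%; median 0.20). LIG4, its ligase, rose (log2 change 1.40, adjusted p = 9.41e-04), as did TP53BP1 (log2 change 1.04, adjusted p = 1.86e-04), and POLQ, the polymerase of the microhomology route, fell (log2 change -3.05, adjusted p = 5.85e-06). Whether any of these lists differs from the family or from all genes was not tested.

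Open chromatin at the starts of the family changed little beside the RNA. The peak nearest the RefSeq start, with its centre within 1000 bp, was taken for 33 genes, and the deposited promoter peak for FANCI and RAD51B. RMI2 had neither. In 11 of the 35 the deposited annotation gives that peak to another gene, often a divergent neighbour that shares the peak. Of the 35 start peaks 3 rose and 3 fell in 10 µM against 0 µM cells and 29 did not pass, where 20.5% of all promoter peaks rose and 14.9% fell. Their median log2 change was 0.062 (range -0.88 to 0.51). Among the 25 genes whose RNA fell and that had a start peak, the peak fell in 2, rose in 2 and did not pass in 21, with a median log2 change of -1.97 for RNA and 0.034 for the peak. For 12 of them RNA had a log2 change of -2 or lower, and apart from EXO1 the 95% intervals of their start peaks all lay between -0.49 and 0.62.

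The start peak of RAD54L at chr1:46247369-46247869 had 17, 15.8 and 13.1 CPM at 0 µM, 15.1, 15.5 and 12.1 CPM at 2 µM, and 16.8 and 11.5 CPM at 10 µM, and its groups overlapped (log2 change -0.074, 95% interval -0.48 to 0.33, adjusted p = 0.771). That of FANCD2 at chr3:10026076-10026576, annotated to the neighbouring pseudogene CIDECP1, had 15.3, 21.6 and 19.7 CPM at 0 µM, 11, 12.7 and 17.9 CPM at 2 µM, and 23.9 and 21.3 CPM at 10 µM (log2 change 0.25, 95% interval -0.13 to 0.62, adjusted p = 0.259). That of UBE2T at chr1:202341812-202342312 had 32.3, 39.7 and 36.5 CPM at 0 µM, 27.5, 27.2 and 31.9 CPM at 2 µM, and 37 and 35.4 CPM at 10 µM (log2 change -0.004, 95% interval -0.31 to 0.30, adjusted p = 0.984). In these 3 genes the 10 µM libraries were within or beside the untreated range, while RNA was at 9.35%, 12.2% and 16.5% of the untreated level.

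**Figure D4:**
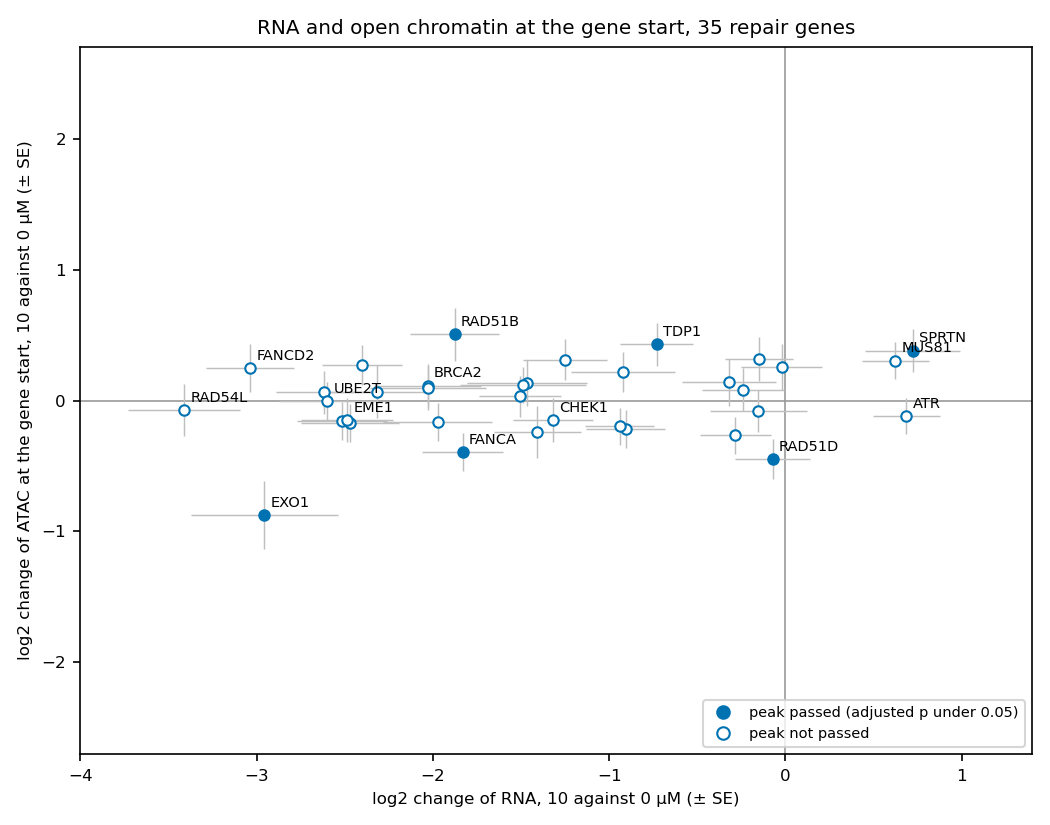
Each point is 1 of 35 repair genes: log2 change of RNA (x) against log2 change of ATAC signal at the gene start (y), 10 against 0 µM, with SE of the edgeR fits; filled points are peaks past the adjusted p of 0.05. RNA spreads from -3.41 to 0.72, the peaks from -0.88 to 0.51, and 29 of 35 are open symbols.

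Start peaks that passed were few. EXO1's at chr1:241848343-241848843 had 7.28, 10.5 and 12.3 CPM at 0 µM, 9.28, 9.28 and 6.68 CPM at 2 µM, and 5.90 and 5.00 CPM at 10 µM. Both libraries at 10 µM were below all untreated ones (log2 change -0.88, SE 0.260, adjusted p = 0.00433). FANCA's at chr16:89816419-89816919, which covers the stretch printed above, had 67.4, 76.1 and 74.6 CPM at 0 µM, 42.6, 42.3 and 52.9 CPM at 2 µM, and 59.6 and 50.9 CPM at 10 µM. Treated libraries of both doses lay below all untreated ones (10 µM log2 change -0.39, SE 0.144, adjusted p = 0.0190; 2 µM log2 change -0.64, SE 0.133, adjusted p = 5.69e-04), and the 10 µM call was lost without replicate 2 at 10 µM (adjusted p = 0.0664). RAD51D's at chr17:35119580-35120080 fell at both doses (10 µM log2 change -0.45, SE 0.153, adjusted p = 0.0127; 2 µM log2 change -0.43, SE 0.141, adjusted p = 0.0259), while its RNA did not pass.

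TDP1's start peak at chr14:89955677-89956177 had 21.1, 33.2 and 29.5 CPM at 0 µM, 24.4, 26.5 and 25.5 CPM at 2 µM, and 41.2 and 34.8 CPM at 10 µM. Both 10 µM libraries were above the rest (log2 change 0.43, SE 0.163, adjusted p = 0.0237). The call was lost without replicate 1 at 0 µM (log2 change 0.23, adjusted p = 0.244), replicate 3 at 0 µM (0.0751) or replicate 1 at 10 µM (log2 change 0.28, adjusted p = 0.256). A second TDP1 peak 701 bp past the RefSeq start used, at chr14:89956378-89956878, had 13.6, 11.1 and 9.66 CPM at 0 µM, 8.93, 12.7 and 13.9 CPM at 2 µM, and 20.1 and 23.3 CPM at 10 µM. It rose at 10 µM (log2 change 0.92, SE 0.193, adjusted p = 1.08e-04) and kept its call with each library left out. SPRTN's start peak, annotated to the neighbour EXOC8, passed as higher (log2 change 0.38, SE 0.162, adjusted p = 0.0446), but without replicate 1 at 10 µM its log2 change was 0.055. The call was also lost without any 1 untreated library or replicate 2 at 2 µM (adjusted p up to 0.197). DESeq2 (adjusted p = 0.165) and scaling to total counts (0.101) did not give it either. RAD51B's rose (log2 change 0.51, SE 0.204, adjusted p = 0.0333), and its RNA fell. The RAD51B peak's call was lost with any 1 library of either dose left out and with DESeq2 (adjusted p = 0.138). MUS81's start peak did not pass (log2 change 0.31, adjusted p = 0.0661). A second MUS81 peak, which starts at chr11:65859369 and covers the gene's first base, passed as higher at 10 µM. Its log2 change was 0.36 to 0.60 over the alternatives. That call was lost without replicate 1 at 0 µM (adjusted p = 0.0507) or at 10 µM. Of all 46 peaks within 1000 bp of a RefSeq start 4 rose and 4 fell.

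In 2 against 0 µM cells 4 of the 35 start peaks fell and none rose, where 5.01% of promoter peaks fell and 7.04% rose. These were FANCA, RAD51D, BLM (log2 change -0.41, SE 0.134, adjusted p = 0.0261) and PALB2 (log2 change -0.38, SE 0.134, adjusted p = 0.0370), and the calls of the last 3 were lost without replicate 1 at 2 µM (adjusted p 0.123 for BLM, 0.136 for PALB2 and 0.138 for RAD51D). BLM and RAD51D also missed the threshold without replicate 2 at 0 µM (adjusted p 0.0615 and 0.0739), BLM and PALB2 without replicate 2 at 2 µM (0.0511 and 0.0742), and PALB2 without replicate 3 at 0 µM (0.0522) or at 2 µM (0.0669). In 10 against 2 µM cells 8 start peaks rose and none fell, where 24.5% of promoter peaks rose and 13.7% fell. TDP1 (log2 change 0.59, SE 0.169, adjusted p = 0.00403), SPRTN (log2 change 0.67, SE 0.171, adjusted p = 0.00122) and FANCD2 (log2 change 0.64, SE 0.195, adjusted p = 0.00648) led these, and the RNA of FANCD2 fell in the same comparison. Without replicate 1 at 10 µM SPRTN (log2 change 0.39, adjusted p = 0.123) and FANCD2 (adjusted p = 0.0522) did not pass. The other 5 were MUS81, TDP2, XRCC3, RAD51AP1 and BRCA1, and of the 8 only MUS81 and TDP1 passed with each library left out. Without replicate 1 at 10 µM the log2 change was 0.12 for TDP2 and 0.26 for BRCA1. RAD51AP1 missed the threshold without any 1 library of the 8 (adjusted p up to 0.173), TDP2 also without replicate 1 or 2 at 2 µM (up to 0.117), BRCA1 also without replicate 2 or 3 at 0 µM or replicate 1 or 3 at 2 µM (up to 0.167), and XRCC3 without replicate 3 at 0 µM, replicate 1 or 3 at 2 µM or either library at 10 µM (up to 0.148).

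The deposited annotation calls 37 peaks of 27 genes promoter peaks, and it counts starts inside the genes. Of these 37, 3 rose and 7 fell in 10 against 0 µM cells, 3 rose and 3 fell in 2 against 0 µM cells, and 6 rose and 6 fell in 10 against 2 µM cells, next to the promoter background already given. The widest changes were at inner starts, with distances counted from the RefSeq start nearest the gene's promoter peaks. FANCL's peak 36.8 kb into the gene, at chr2:58204256-58204756, had 35.2, 31.4 and 42 CPM at 0 µM, 41.9, 43.3 and 32.2 CPM at 2 µM, and 8.18 and 16.1 CPM at 10 µM. It fell at 10 µM (log2 change -1.64, SE 0.213, adjusted p = 4.78e-08), and the peak at the gene's main start did not pass (log2 change -0.22, 95% interval -0.52 to 0.083, adjusted p = 0.214). FANCC's peak 67.1 kb into the gene, at chr9:95249871-95250371, had 8.25, 8.84 and 8.71 CPM at 0 µM, 8.93, 4.81 and 7.77 CPM at 2 µM, and 1.21 and 2.39 CPM at 10 µM. It fell likewise (log2 change -2.35, SE 0.343, adjusted p = 4.22e-07), while the main start did not pass (log2 change -0.24, 95% interval -0.64 to 0.16, adjusted p = 0.305). SLX4's peak 1.55 kb into the gene fell too (log2 change -2.05, SE 0.326, adjusted p = 1.77e-06) without a detected change of its RNA.

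Inside FANCA 2 promoter-annotated peaks opened at 2 µM and were low again at 10 µM. The one 71.6 kb into the gene, at chr16:89744840-89745340, had 6.06, 2.86 and 7.20 CPM at 0 µM, 15.1, 16.5 and 12.7 CPM at 2 µM, and 4.43 and 3.91 CPM at 10 µM. All libraries at 2 µM were above all others (2 against 0 µM log2 change 1.49, SE 0.254, adjusted p = 6.10e-05). The one 51.5 kb in, at chr16:89764866-89765366, had 11.2, 6.53 and 9.85 CPM at 0 µM, 28.2, 18.6 and 17.9 CPM at 2 µM, and 4.56 and 5.44 CPM at 10 µM. It rose at 2 µM (log2 change 1.24, SE 0.212, adjusted p = 6.16e-05) and was below 0 µM at 10 µM (log2 change -0.85, SE 0.279, adjusted p = 0.00949), the second call being lost without replicate 1 at 10 µM (adjusted p = 0.0845). The peak 63.9 kb in passed at 2 µM as well (log2 change 0.68, SE 0.215, adjusted p = 0.0209), but not without replicate 2 or 3 at 0 µM or replicate 1 or 2 at 2 µM (adjusted p up to 0.130). FANCA RNA at 2 µM did not pass (log2 change -0.31, 95% interval -0.80 to 0.17, adjusted p = 0.506).

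**Figure D5:**
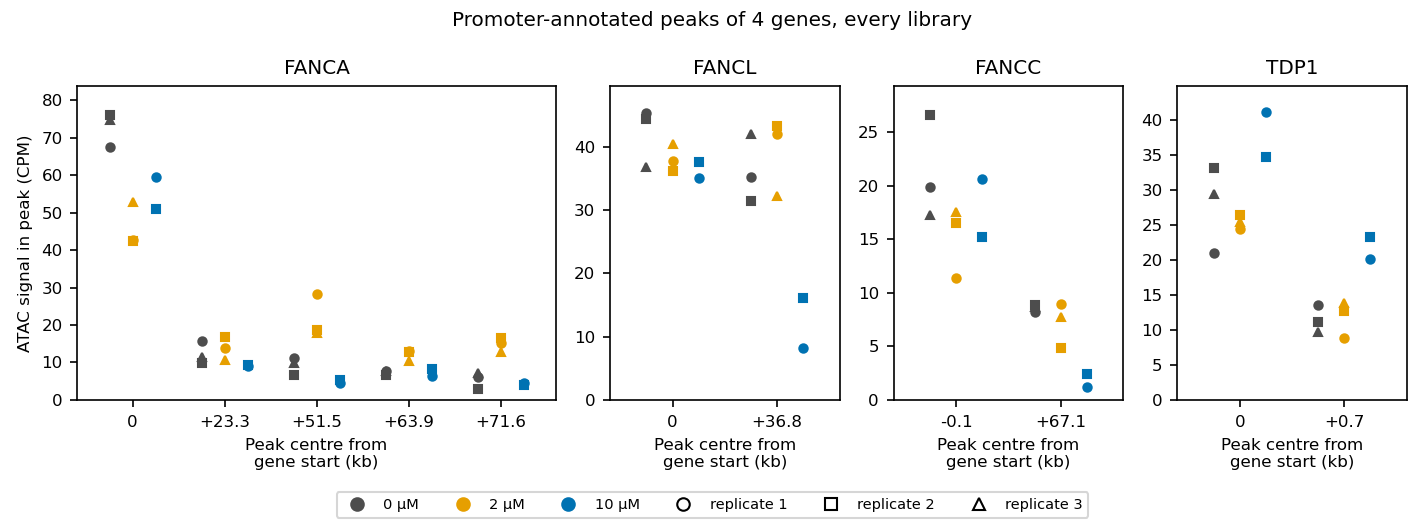
ATAC CPM of every library at the promoter-annotated peaks of FANCA, FANCL, FANCC and TDP1, by distance of the peak centre from the RefSeq start used, in kb along the gene (colours, doses; symbols, replicates). In FANCA the peaks at +51.5 and +71.6 kb are highest at 2 µM, in FANCL and FANCC the inner peak is lowest at 10 µM, and in TDP1 the peak at +0.7 kb is highest at 10 µM.

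Away from promoters the deposited annotation gives the family 42 further peaks at 19 genes, each assigned to the nearest gene start, and 14 of them, at 10 genes, lie wholly outside the gene they are assigned to. In 10 against 0 µM cells 23 of them fell (54.8%) and 8 rose (19%), where 27.6% of all peaks fell and 29.9% rose. In 2 against 0 µM cells 6 fell and 6 rose, where 7.3% of all peaks fell and 15.5% rose. In 10 against 2 µM cells 18 fell and 6 rose, where 27.6% of all peaks fell and 27.5% rose. All peaks include 19763 promoter peaks, which were called less often in each comparison (in 10 against 0 µM cells 14.9% fell and 20.5% rose). The background share of peaks away from promoters alone is therefore higher than the shares of all peaks, and it was not computed. The 42 peaks are not independent of each other, since FANCC, FANCE and RAD51B are assigned several each.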

How the data were processed

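RNA-seq and ATAC-seq of HepG2 cells were used as deposited. Raw counts were deposited by the authors, for RNA per gene and for ATAC per consensus peak of 501 bp. The submitters' processing notes name HISAT2 2.2.1, HTSeq 2.0.4, DESeq2 1.42.1 and DiffBind 3.12.0, with hg38. The role of each, the peak caller and the strand setting are not given in the sources used here, though the RNA kit is strand-specific per the labels' protocols. Peak annotation is the authors'. Of 63187 gene identifiers 62030 matched a symbol.

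Counts of all genes, or of all 58372 peaks, were fitted with edgeR 4.0.16 in R 4.3.3 (TMM scaling, its filter on low counts, 1 mean per dose, quasi-likelihood F-test, prior count 0.125), with Benjamini-Hochberg adjustment over all features tested per comparison. SEs were taken from the log2 change and F. Alternatives were other scalings, DESeq2 1.42.0, other filters, only the 2 doses compared, a replicate block and leaving out each library. The scripts were tested on simulated counts.

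Replicate numbers are shared by the doses. Deviations of same-numbered RNA libraries correlated at 0.194, 0.264 and 0.283 between 2 and 0 µM, which counts as paired, and the block called no gene of the family there either. For the other comparisons the numbers did not pair the libraries.

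The 36 genes, the lists, the promoter words and the tests were chosen with earlier results of these data known. Values in every library are given for the 15 genes with the smallest adjusted p among those that fell, for those that rose, and for 6 others (SLX4, RBBP8, RAD51D, CHEK1, TDP1 and TDP2) chosen after their values were seen. From each list at most 4 genes, those with the smallest adjusted p, may be named, and 1 gene of the recombination list is counted but not reported by name here. Promoter peaks are named for up to 8 genes per direction and comparison. Promoter sequences and gene starts are RefSeq's (GRCh38.p14). The authors' table of normalized counts was not used.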

Additional observations from a re-analysis of the deposited data

How the results depend on the processing

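Of the 29 RNA calls at 10 against 0 µM 25 held under every alternative run, as did 22 of the 25 at 10 against 2 µM, and no call turned its direction. The number of genes that fell was 24 to 26 at 10 against 0 µM, 0 to 2 at 2 against 0 µM and 22 to 27 at 10 against 2 µM with single libraries left out, and the number that rose was 1 to 3, 0 to 0 and 0 to 1. With the replicates 3 at 0 and 2 µM left out together, 27, 2 and 27 genes fell in these comparisons and 2, 0 and 0 rose. SPRTN alone rose at 10 against 2 µM (1 gene) with the replicate block over all doses, with only the 2 doses and with the block over these. Scaling to total counts moved the median of all genes at 10 against 0 µM to 0.24 and that of the family to -1.23.

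Promoter peaks moved more. Calls were counted for peaks annotated as promoter or lying within 1000 bp of the RefSeq start. Of these, 4 of 13 held under every alternative at 10 against 0 µM, 3 of 7 at 2 against 0 µM and 7 of 16 at 10 against 2 µM. The counts that follow are for the annotated promoter peaks, except where the RefSeq window is named. At 10 against 0 µM the number that rose was 1 with total counts, DESeq2, only the 2 doses or the block within these, and 1 to 3 with libraries left out. The number that fell was 3 with the block within the 2 doses, 4 with peaks within 1000 bp of the RefSeq start, and 6 to 9 with libraries left out. At 2 against 0 µM the number that fell was 1 with the block over all doses, 6 with only the 2 doses, 7 with the block within these, and 2 to 6 with libraries left out, while the number that rose was 0 with the RefSeq window and 2 to 3 with libraries left out. At 10 against 2 µM the number that rose was 3 with total counts or the block within the 2 doses, 10 with the RefSeq window and 3 to 5 with libraries left out, and the number that fell was 0 with the RefSeq window and 5 to 8 with libraries left out. The RefSeq window counts other peaks by its construction. For the other moves the cause was not tested. ATAC at 10 µM rests on 2 libraries, so leaving out 1 assumes that the lone library varies like the other doses.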

Other observations

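Among the peaks of the family away from promoters, the largest rise was at a peak that the deposited annotation assigns to FANCL but that lies outside that gene, at chr2:58107802-58108302, with 3.64, 1.90 and 1.52 CPM at 0 µM, 10.7, 8.59 and 8.59 CPM at 2 µM, and 22.8 and 32.6 CPM at 10 µM (log2 change 3.60, SE 0.261, adjusted p = 2.94e-13). Every treated library was above every untreated one there. The largest fall was in an intron of RAD51B, at chr14:68349821-68350321, with 20.1, 21.8 and 24.1 CPM at 0 µM, 11, 13.8 and 11.3 CPM at 2 µM, and 2.55 and 3.26 CPM at 10 µM (log2 change -2.95, SE 0.242, adjusted p = 4.07e-12). Both 10 µM libraries were below all others. RAD51B held 9 such peaks, of which 6 fell and 2 rose at 10 µM, and the widest rise was at chr14:68535341-68535841 (log2 change 2.38, SE 0.336, adjusted p = 2.29e-07). An exon peak of BRCA1 at chr17:43114146-43114646 fell at 10 µM (log2 change -2.79, SE 0.265, adjusted p = 8.50e-11), and at 2 µM no call was made (log2 change -0.40, 95% interval -0.77 to -0.020, adjusted p = 0.121). Neighbouring peaks assigned to FANCE, both outside that gene, went opposite ways at 10 µM, at chr6:35400882-35401382 (log2 change 2.02, SE 0.219, adjusted p = 1.28e-09) and chr6:35402483-35402983 (log2 change -1.96, SE 0.190, adjusted p = 1.35e-10). These peaks were chosen after their values were seen.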
